A study of Mus musculus with 8 samples.

Results

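The Hox genes are 39 transcription factor genes that lie in 4 clusters in the mouse genome: 11 Hoxa genes, 10 Hoxb genes, 9 Hoxc genes and 9 Hoxd genes. All 39 were found among the 43372 gene symbols of the count table, by the name of the cluster followed by the paralog number (1 to 13). Each gene encodes a homeodomain protein. The order of the genes along a cluster follows the order in which they are expressed along the body axis of the embryo, low paralog numbers towards the head and high ones towards the tail, and genes of different clusters with the same number are close relatives. HOX proteins bind DNA together with PBX and MEIS proteins. In spinal sensory neurons they are known for setting position along the axis and the choice of targets, and Hoxd1 is known from mouse nociceptors, where it shapes the growth of their axons.

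Expression was measured by RNA sequencing in 2 groups of C57Bl/6 mouse dorsal root ganglion neurons, with 4 independent samples each. In the Sst libraries, Cre recombinase came from the locus of Sst, the somatostatin gene (Sst-IRES-Cre, genotype Ssttm2.1(cre)Zjh/J), and in the Trpv1 libraries from the locus of Trpv1, the capsaicin receptor gene (Trpv1-IRES-Cre, genotype Trpv1tm1(cre)Bbm/J). Pups of both genotypes were injected into the peritoneum at postnatal day 2 with an AAV9 vector whose eGFP or tdTomato reporter needs Cre (AAV9-CAG-FLEX), and 150 to 250 fluorescent cells per mouse were picked by hand at 3 to 5 weeks of age. A library therefore holds the cells in which Cre acted after the injection, and it gives the mean of its pool. The labels give neither the spinal levels of the ganglia nor the reporter of each sample. Each picking session yielded a sample of both genotypes, but the labels do not say which samples shared a session. The samples are called independent, with no mouse named for each, so p-values measure the spread between these samples, which may be partly technical.

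Totals ran from 7419027 to 12153109 counts per library, so 1 read was worth 0.0907 to 0.128 CPM (counts scaled to the effective size of each library). All 4 Sst libraries and Trpv1 replicates 3 and 4 held Xist and no Y-linked counts, and Trpv1 replicates 1 and 2 the reverse. The pituitary hormone genes Gh and Prl had at least 937 counts each in Sst replicate 2 and Trpv1 replicates 1, 2 and 3, and at most 1 in the others. Pan-sensory neuron markers summed to 5983 to 6701 CPM on the Sst side and 4093 to 4735 CPM on the Trpv1 side. Snap25 alone stood at 4052 ± 372 and 2000.0 ± 271 CPM (edgeR adjusted p = 3.6e-05), Scn9a was called the other way (663 ± 68.8 and 1044 ± 213 CPM, edgeR adjusted p = 0.0272), and the median log2 fold change of the 9 markers tested was 0.09. Mesenchymal markers, from a lineage that can also express Hox genes, summed to 108 to 509 and 98.9 to 451 CPM, and satellite glia markers to 686 to 1022 and 423 to 672 CPM. Markers of myelinating Schwann cells lay the other way from those of satellite glia, at 350 to 574 and 553 to 778 CPM. Markers of macrophages and other blood cells summed to 9.70 to 28.6 and 7.11 to 42.1 CPM. The part of these other cells in the Hox counts was not tested.

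Hoxd1 and Hoxd8 were counted in all 8 libraries, and no other Hox gene was, so their upstream sequences are shown first. Each is given 5′ to 3′ on the plus strand of GRCm38.p6 (RefSeq promoter table), from 250 bases before the gene's start to the base before it. Capitals mark matches on either strand to the CCAAT box (CCAAT) and the GC box (GGGCGG), which are general promoter elements.
Hoxd1 (chr2:74762730-74762979): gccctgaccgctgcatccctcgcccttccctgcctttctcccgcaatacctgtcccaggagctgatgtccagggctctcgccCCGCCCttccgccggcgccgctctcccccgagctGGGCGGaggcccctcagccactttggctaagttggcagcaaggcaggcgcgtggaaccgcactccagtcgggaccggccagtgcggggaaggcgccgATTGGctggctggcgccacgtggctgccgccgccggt
Hoxd8 (chr2:74704365-74704614): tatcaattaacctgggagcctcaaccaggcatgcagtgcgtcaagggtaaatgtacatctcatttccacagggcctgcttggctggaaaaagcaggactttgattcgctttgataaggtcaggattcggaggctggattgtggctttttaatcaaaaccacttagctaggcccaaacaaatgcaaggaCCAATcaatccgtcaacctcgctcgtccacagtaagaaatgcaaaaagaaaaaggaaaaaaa

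The upstream regions of these most abundant Hox genes differ in composition. That of Hoxd1 held 24 CpG dinucleotides and 71.6% G and C, with GC boxes starting 168 and 134 bases before the start and a CCAAT box on the minus strand at 37. That of Hoxd8 held 6 CpG and 44.4% G and C, with a CCAAT box at 62. RefSeq promoters matched 22 of the 39 Hox genes, with 24 starts, whose median was 12.5 CpG against 6 over all 32851 promoters. A CCAAT box was found in 14 of the 24 and in 33.8% of all promoters, and a GC box in 10 of the 24 and in 32.7% of all. The composite site of PBX and HOX proteins (TGATNNAT, both strands) was found in 4 of the 24 and in 7.68% of all, and its letters do not occur in either sequence above. In the GENCODE M21 annotation the noncoding RNA gene Haglr (chromosome 2, 74748422 to 74762896, minus strand) starts 84 bases before the Hoxd1 start and runs the other way, so its start lies inside the Hoxd1 sequence shown.

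Reads fell on the genes of paralog groups 1 to 9 and nearly none on groups 10 to 13. All 27 genes of groups 1 to 9 had at least 1 read in the 8 libraries together, with 5695 reads in all. Of the 12 genes of groups 10 to 13, 11 had 0 reads in every library: Hoxa11, Hoxa13, Hoxb13, Hoxc10, Hoxc11, Hoxc12, Hoxc13, Hoxd10, Hoxd11, Hoxd12 and Hoxd13. A count of 0 over all 8 libraries allows a level of up to 0.0396 CPM (3 counts; reads carried no molecular identifiers, so this limit covers counting error only). Hoxa10 was the exception, with 2 reads in Sst replicate 1 and 1 in Trpv1 replicate 1. In mice, genes of groups 10 to 13 are known to act in the lumbar, sacral and tail regions.

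**Figure D1:**
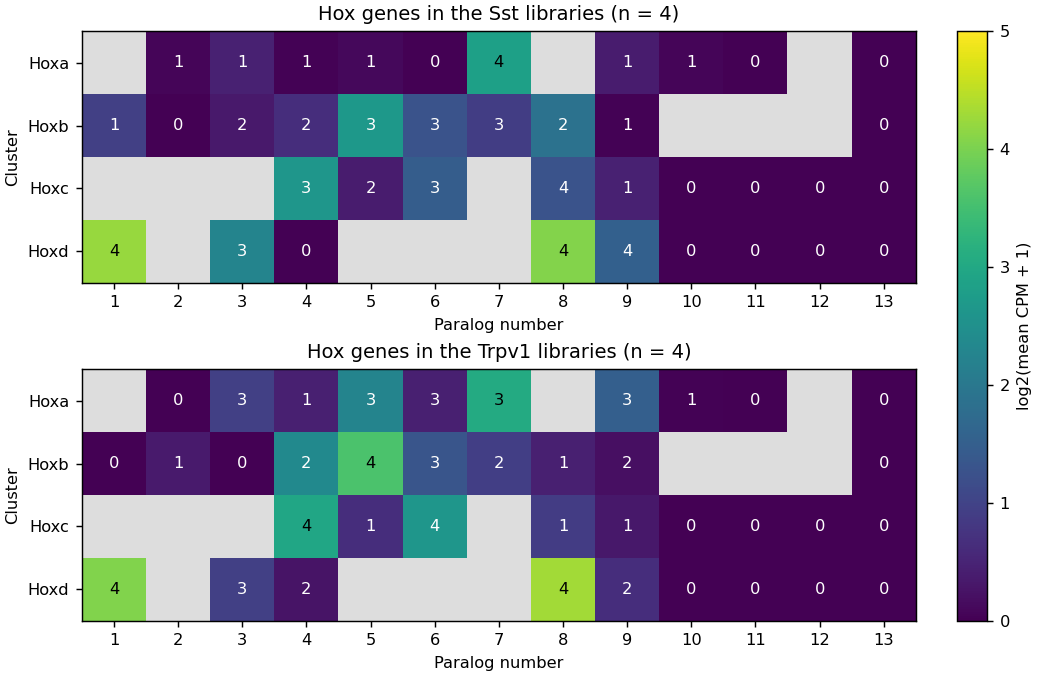
Mean level of each Hox gene by paralog number (x axis) and cluster (y axis) in the Sst (top) and Trpv1 libraries (bottom), as log2(mean CPM + 1). Numbers give how many of the 4 libraries had at least 1 read, and grey cells are genes that do not exist or are not shown. Hoxd1 and Hoxd8 are brightest in both genotypes, and genes numbered 10 to 13 are dark.

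Summed over the 39 genes, Hox reads stood at 72.6, 62.5, 67.1 and 70.0 CPM in Sst replicates 1 to 4 and at 99.2, 70.6, 81.5 and 79.3 CPM in Trpv1 replicates 1 to 4. The means were 68.0 ± 4.35 and 82.6 ± 12.0 CPM (SD, n = 4 each), and the groups overlapped, since Trpv1 replicate 2 lay below Sst replicate 1. The sum hides a varying make-up: between 7 (Trpv1 replicate 2) and 20 (Sst replicate 1 and Trpv1 replicate 1) of the 39 genes had reads in a library. Fewer expressing cells and less RNA per cell cannot be told apart in such pools.

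The Hoxd cluster gave the most Hox reads, 57.3% ± 7.30 of the Hox CPM in Sst and 44.6% ± 19.2 in Trpv1 (SD, n = 4 per genotype). It was the highest cluster in 7 of 8 libraries and fell below both Hoxa and Hoxb in Trpv1 replicate 4, where it stood at 17.9 CPM against 29.1 and 28.0 CPM. Per kilobase of exon the Hoxd share was 60.1% ± 7.94 and 47.3% ± 19.3. The other clusters varied widely between libraries. Hoxa genes summed to 5.00 to 12.6 CPM on the Sst side and 1.53 to 29.1 CPM on the Trpv1 side, Hoxb genes to 1.53 to 27.1 and 6.39 to 28.9 CPM, and Hoxc genes to 0.278 to 16.4 and 4.25 to 18.9 CPM. The lowest Hoxc value, in Sst replicate 3, was 3 reads of Hoxc8, while the same library was the highest Sst library for Hoxb.

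**Figure D2:**
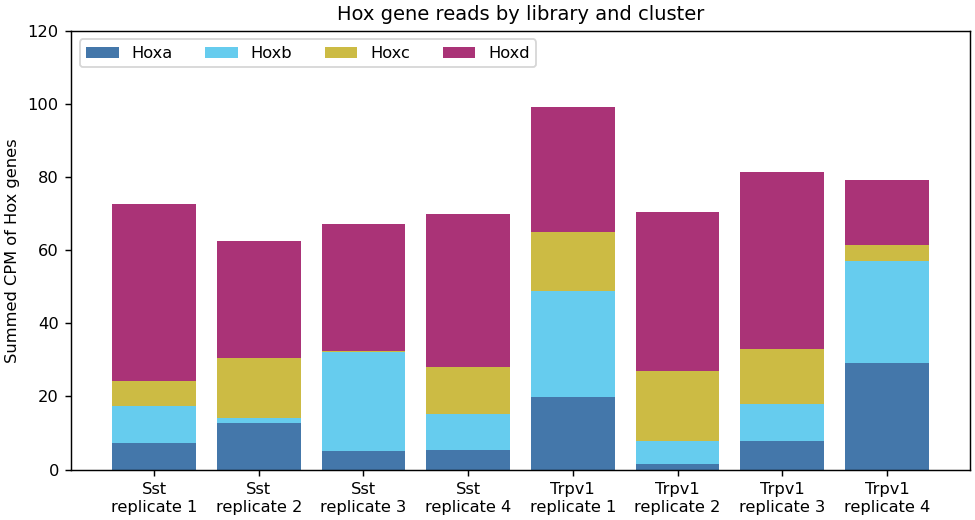
Summed CPM of the Hox genes in each of the 8 libraries (bars), divided by cluster. The totals run from 62.5 to 99.2 CPM. Hoxd is the largest part in every library except Trpv1 replicate 4, and the parts of Hoxa, Hoxb and Hoxc differ from bar to bar.

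By paralog number the levels did not fall evenly from 1 to 9. Group 8 was highest, at 19.8 ± 6.84 CPM on the Sst side and 19.9 ± 11.9 CPM on the Trpv1 side, followed by group 1 at 19.3 ± 8.42 and 15.6 ± 4.89 CPM (SD, n = 4 each). Per kilobase of exon the order turned in both genotypes, with group 1 at 10.2 ± 4.59 and 8.39 ± 2.62 and group 8 at 7.25 ± 2.50 and 7.26 ± 4.36 CPM per kilobase (Sst and Trpv1). The order of these groups, which hold Hoxd1 and Hoxd8, was within their spread. Groups 4, 5 and 7 stood at 5.79 ± 5.21, 5.75 ± 4.39 and 7.03 ± 2.41 CPM on the Sst side and 11.5 ± 9.53, 15.4 ± 12.9 and 8.21 ± 7.86 CPM on the Trpv1 side. Groups 3, 6 and 9 had means between 1.84 and 7.06 CPM in either genotype. Group 2, Hoxa2 and Hoxb2, had 11 reads in all, 2 of Hoxa2 in Sst replicate 1 and 9 of Hoxb2 in Trpv1 replicate 3. In the embryo these genes pattern the hindbrain.

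Since a longer transcript gathers more reads, genes were ranked per kilobase of exon. Over the 8 libraries Hoxd1 had a mean of 8.99 and Hoxd8 of 6.28 CPM per kilobase. Hoxb5 (2.94), Hoxa7 (2.34), Hoxc4 (2.32) and Hoxc6 (1.45) came next in CPM per kilobase. Hoxa5 had a mean of 1.02, or 0.296 without Trpv1 replicate 4, with 0.040 in Sst and 2.01 in Trpv1. Hoxb8 reached 1.01 in Sst and Hoxb4 1.62 in Trpv1, each mostly from a single library.

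The study compares neurons picked by Sst-driven Cre with those picked by Trpv1-driven Cre. No Hox gene passed the test for a difference between them. The expression filter kept 9 of the 39 genes (Hoxa7, Hoxa9, Hoxb5, Hoxb6, Hoxc4, Hoxc6, Hoxd1, Hoxd3 and Hoxd8), of which 0 were called (quasi-likelihood test of edgeR, Benjamini-Hochberg over 11828 genes, adjusted p from 0.229 to 0.957), beside 6.35% of all genes tested, 3.04% higher and 3.31% lower in Sst. At an unadjusted p under 0.05, 1 of the 9 passed in edgeR, beside 20.5% of all genes, and 0 passed in DESeq2 or limma voom. By adjusted p 0 passed in either, but DESeq2 gave no adjusted p for Hoxa9 and Hoxb6. The fitted log2 fold change (Sst over Trpv1) was above 0 for 2 genes and below 0 for 7, with a median of −0.36 against 0.01 over all genes tested. For 0 of the 9 the groups did not overlap, beside 11.1% of all genes tested.

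Hoxd1 stood at 30.3, 17.2, 8.34 and 15.5 CPM in Sst replicates 1 to 4 and at 17.0, 21.6, 13.8 and 10.1 CPM in Trpv1 replicates 1 to 4. Both the highest and the lowest library were Sst libraries, so the groups overlapped fully. The means were 17.8 ± 9.14 and 15.6 ± 4.89 CPM (SD, n = 4 each), and the fitted log2 fold change was 0.19 (95% interval −0.87 to 1.25, edgeR adjusted p = 0.881). The interval leaves room for a difference in either direction, so the test does not show that the levels are alike. The gene lies on chromosome 2 (74762980 to 74765142, plus strand), and none of its exon bases are shared with another annotated gene.

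Hoxd8, a gene of the middle of the cluster (chromosome 2, 74704615 to 74707933, on the plus strand) stood at 14.1, 11.8, 11.1 and 25.9 CPM in Sst replicates 1 to 4. It stood at 13.1, 22.0, 33.5 and 6.26 CPM in Trpv1 replicates 1 to 4. Here the extremes were both Trpv1 libraries, and the 4 Sst values lay between them. The means were 15.7 ± 6.92 and 18.7 ± 11.8 CPM, a log2 fold change of −0.20 (95% interval −1.31 to 0.91, edgeR adjusted p = 0.882). The highest library exceeded the lowest 5.35-fold for Hoxd8 and 3.63-fold for Hoxd1.

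Hoxb5, the most abundant Hoxb gene (chromosome 11, 96303336 to 96306121, on the plus strand) stood at 4.28, 0, 10.5 and 6.71 CPM on the Sst side and 10.9, 6.39, 4.06 and 22.8 CPM on the Trpv1 side. Its log2 fold change was −1.03 (95% interval −2.52 to 0.45, edgeR adjusted p = 0.454). Hoxa7, the most abundant Hoxa gene (chromosome 6, 52214491 to 52221854, minus strand), stood at 5.18, 9.48, 4.45 and 5.44 CPM on the Sst side and 12.0, 0, 3.05 and 14.2 CPM on the Trpv1 side. The Sst values of Hoxa7 thus lay close together between widely spread Trpv1 values (log2 fold change −0.36, edgeR adjusted p = 0.841). Hoxc4, the most abundant Hoxc gene (chromosome 15, 103018934 to 103036852, plus strand), showed the reverse spread, at 2.79, 11.6, 0 and 6.44 CPM on the Sst side and 8.69, 6.39, 7.74 and 4.14 CPM on the Trpv1 side (−0.42 on the log2 scale, edgeR adjusted p = 0.816). Hoxb5 and Hoxc4 are known for roles in the neck and upper trunk.

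**Figure D3:**
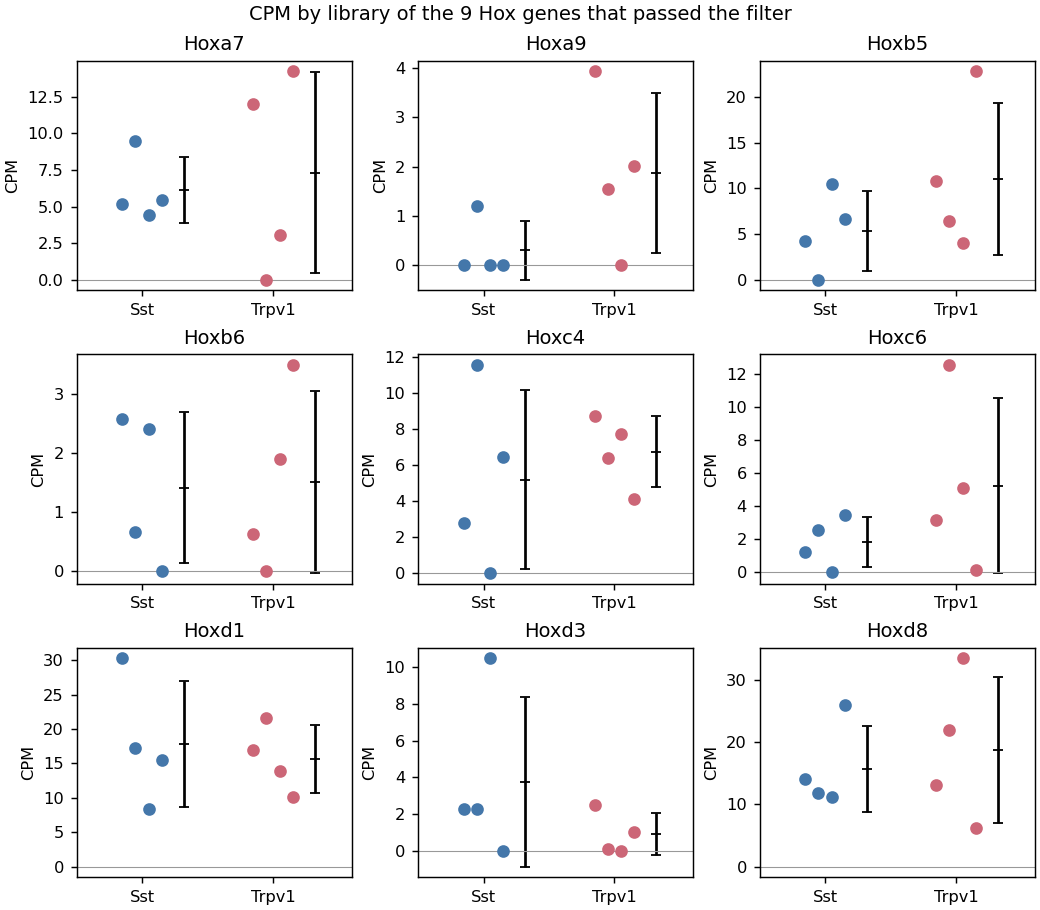
CPM of the 9 Hox genes that passed the expression filter (y axes, scaled per gene), with 1 point per library in the order of replicates 1 to 4 and the mean ± SD beside them. Points of the 2 genotypes overlap for each gene, and 7 of the 9 genes have a library at 0.

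The largest fitted differences were those of low-abundance genes. Hoxa9, a gene of the lower trunk, had reads in Sst replicate 2 alone among the Sst libraries (1.20 CPM), and stood at 3.93, 1.53, 0 and 2.02 CPM in Trpv1 replicates 1 to 4. Its log2 fold change was −2.82 (95% interval −5.58 to −0.06, unadjusted p = 0.0441, edgeR adjusted p = 0.229). Without Sst replicate 2 the Sst group held 0 reads of Hoxa9, so the value fitted then (−7.23) measures no size of difference. Hoxd3 stood at 2.29, 2.29, 10.5 and 0 CPM on the Sst side and 2.48, 0.128, 0 and 1.06 CPM on the Trpv1 side, with Sst replicate 3 far above the rest. Its log2 fold change was 1.91 (edgeR adjusted p = 0.324), and it was 0.56 without Sst replicate 3. Of its exon bases 62.8% are shared with other annotated genes, Hoxd4 among them, so its reads are uncertain. Hoxc6 stood between 0 and 3.45 CPM on the Sst side and between 0.106 and 12.5 CPM on the Trpv1 side, and Hoxb6 between 0 and 2.59 and between 0 and 3.50 CPM (log2 fold changes −1.46 and −0.13, edgeR adjusted p = 0.402 and 0.957).

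**Figure D4:**
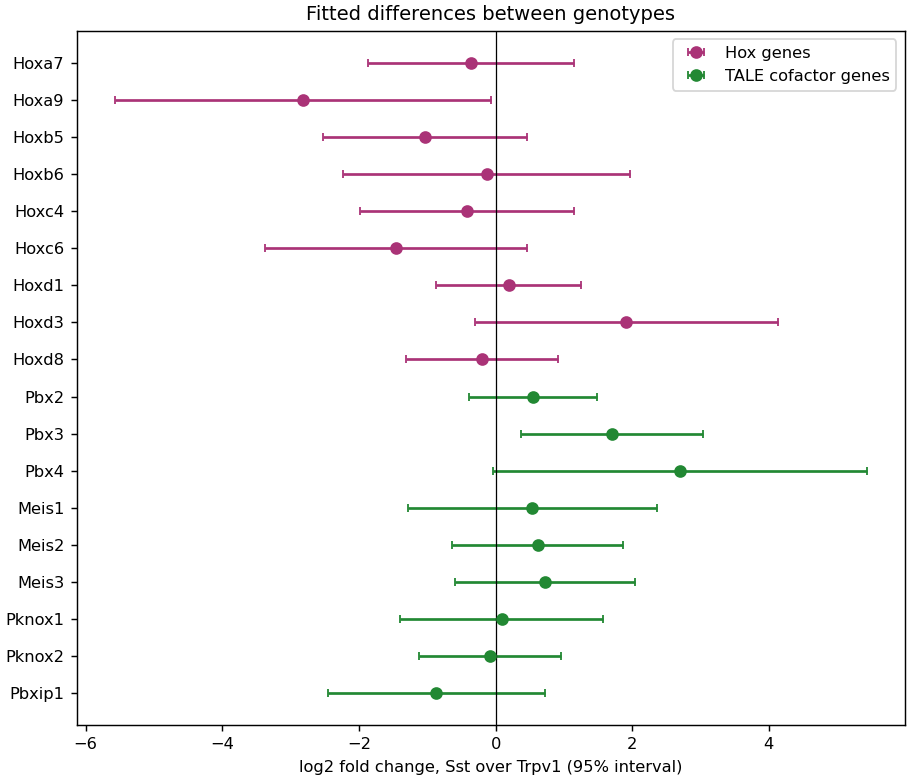
Fitted log2 fold change, Sst over Trpv1 (x axis), with its 95% interval for the 9 Hox genes and 9 genes of TALE homeodomain cofactors and their partners that passed the expression filter. Intervals of the Hox genes include 0 except that of Hoxa9 (−5.58 to −0.06). Among the other genes shown, that of Pbx3 excludes 0 (0.37 to 3.04). No gene shown passed the adjusted test.

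Libraries of the same genotype differed widely in their Hox reads. Of the 9 tested, 2 had reads in all 8 libraries, beside 85.7% of all genes tested, a share not matched for abundance. The biological coefficient of variation, the library-to-library spread that edgeR fits within groups, had a median of 99.7% over the 9 genes. The trend over all genes at the abundance of these 9 had a median of 92.5%. For 7 of the 9 it was above the trend, as for 35.7% of all genes tested, and for Hoxd1 (0.541, trend 0.603) and Hoxd8 (0.575, trend 0.595, both as fractions) below it.

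The other 30 Hox genes did not pass the filter: 11 had no reads, and 19 had reads but reached its minimum in too few libraries. For 14 of those 19, a single library held over 50% of the reads, a share not compared with that of other genes with so few reads. Examples were Hoxb1, whose 40 reads all lay in Sst replicate 3, Hoxb4, with 148 of 183 reads in Trpv1 replicate 1, and Hoxb8, with 112 of 126 reads in Sst replicate 3. Hoxb1 acts in the embryonic hindbrain and Hoxb8 in the trunk spinal cord. Reads spread over more libraries for Hoxc8 (92 reads in 5 libraries), Hoxd9 (100 in 6) and Hoxb7 (70 in 5).

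Among these 19, Hoxa5 had 3 reads in the Sst group, all in replicate 1, and 20, 0, 12 and 108 in Trpv1 replicates 1 to 4, a ratio of 55.0 (95% counting interval 18.5 to 270). The interval covers counting error only and leaves out the spread between libraries. Trpv1 replicate 4 held 75.5% of the Hoxa5 reads. Tested without a filter it did not pass (log2 fold change −5.50, unadjusted p = 0.00472, edgeR adjusted p = 0.0931), nor in the 7 other fits that included it. Hoxb3 and Hoxb1 had reads in Sst libraries only, 11 and 40, and Hoxa6, Hoxb2 and Hoxd4 in Trpv1 libraries only, with 12, 9 and 7. Other genes had few reads: Hoxa2 had 2, Hoxa3 45, Hoxa4 15, Hoxa10 3, Hoxb9 6, Hoxc5 31 and Hoxc9 24 over all libraries.

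Exons of Hox genes overlap those of neighbours, and the sources used here do not say whether counting used strand. Genes on the opposite strand shared 52.9% of the exon bases of Hoxb3, 27.3% of those of Hoxb2 and 20.4% of those of Hoxa7 (with Hoxaas3). Such reads cannot be told apart without strand. Hoxd4 shared 52.3% of its bases with other genes, mostly on its own strand. Hoxd8, Hoxc4, Hoxc6 and Hoxb6 shared none.

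Noncoding RNA genes of the clusters were low. Of 25 listed, 17 were in the table, 9 of them with 0 reads. The filter kept 2, of which 0 were called, beside 6.35% of all genes tested. Haglr, the most abundant, had 2, 64, 25 and 1 reads in Sst replicates 1 to 4 and 21, 57, 39 and 16 in Trpv1 replicates 1 to 4. The groups overlapped. Its log2 fold change was −0.77 (95% interval −2.68 to 1.15, edgeR adjusted p = 0.705), and leaving out 1 library moved it between −2.10 (without Sst replicate 2) and −0.31 (without Trpv1 replicate 2). Hottip and Hoxa11os, at the tail end of the Hoxa cluster, had 0 reads, and Hotair, beside Hoxc11, had 2 in Sst replicate 1.

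Genes just outside the clusters were also examined. Of 24 listed, 21 were in the table and 16 were tested, with 1 higher and 0 lower in the Sst libraries, beside 3.04% and 3.31% of all genes, and a median log2 fold change of −0.04. Their summed level was 1248 to 1454 CPM on the Sst side and 1265 to 1594 CPM on the Trpv1 side. The homeobox genes Evx1 and Evx2, at the tail ends of Hoxa and Hoxd, had 0 reads in all libraries. The gene called was Atp5g1, beside the Hoxb cluster, which encodes a subunit of mitochondrial ATP synthase (73.5 ± 16.1 against 29.2 ± 19.4 CPM, fitted log2 difference 1.30, edgeR adjusted p = 0.0443). That call was lost in 10 of 19 alternatives, among them when any of Sst replicates 1 to 3 or Trpv1 replicates 2 to 4 was left out (where adjusted p ran from 0.0665 to 0.129 in edgeR).

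The list of TALE homeodomain genes and partners, among them cofactors of HOX proteins, holds the PBX, MEIS and PKNOX genes, Tgif1, Tgif2 and Pbxip1. Together they summed to 208 to 298 CPM on the Sst side and 125 to 205 CPM on the Trpv1 side. Of 12 listed genes 10 were tested, 0 were called (6.35% of all genes) and 8 had a log2 fold change above 0 (median 0.58, beside 0.01 over all genes tested). At an unadjusted p under 0.05, 2 passed in edgeR, beside 20.5% of all genes.

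Polycomb and trithorax genes, whose proteins keep Hox genes silent or active, were counted in both genotypes. Of 30 listed genes 27 were tested, 0 were called, beside 6.35% of all genes, and edgeR gave 4 an unadjusted p under 0.05, beside 20.5% of all genes. The median log2 fold change was −0.10. The methyltransferase gene Kmt2a was the most abundant, at 247 ± 53.6 against 266 ± 17.8 CPM (fitted log2 difference −0.11, edgeR adjusted p = 0.838).

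Among genes that act upstream of Hox genes in the embryo (retinoic acid signalling, Cdx, Gdf11 and others), 12 of 21 were tested. In the Sst libraries 1 was higher and 0 lower (3.04% and 3.31% of all genes). The median log2 fold change was 0.96, beside 0.01 over all genes, with 8 genes above 0 and 4 below. In edgeR 4 had an unadjusted p under 0.05, beside 20.5% of all genes. The 21 genes together summed to 59.6 to 114 CPM on the Sst side and 45.5 to 116 CPM on the Trpv1 side.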

How the data were processed

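The deposited values are raw counts, 1 row per gene symbol and 1 column for each of the 8 libraries. Per the submitters' processing notes, the tools were bcl2fastq 2.17, Trimmomatic 0.33 and featureCounts, and the build GRCm38. Aligner, annotation, strand setting and multimapping are not given in the sources read. Per the labels' protocols, amplification used the Ovation V2 kit. Column names matched the samples' labels.

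The counts were normalised with TMM factors and filtered with edgeR's expression filter (minimum count 10), which left 11828 genes. Genotypes were compared with edgeR 4.0.16 (R 4.3.3, robust quasi-likelihood F test of edgeR 4, group as the sole term, two-sided, Benjamini-Hochberg adjustment over all genes, threshold 0.05). Standard errors and 95% intervals were derived from the fold change and F statistic. Exon lengths and overlaps came from GENCODE M21. The code was tested on simulated data.

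Alternatives were RLE size factors, no filter, at least 5 CPM in 4 libraries as filter, DESeq2 1.42.0, limma 3.58.1 voom with sample weights, no robustness, the replicate number as a block, a term for Xist, the libraries with Xist, those where Gh and Prl had 0 or 1 count, and leaving out each library. The older quasi-likelihood fit was added after seeing the data. The Hox genes and the other lists were chosen with earlier results of these data known. Of the listed symbols, 12 matched no row: Hoxc13os, Hoxc-as1, Hoxc-as2, Hoxc-as3, Hoxb6os, Hoxb7os, Hoxa6os, Hoxa10os, Prac1, Prac2, Lnpk and Drgx. Hox genes were given library by library if called, if their groups did not overlap or if most abundant in their cluster, and the others were chosen after their values were seen. Of other lists the text names called genes or the most abundant one. Evx1, Evx2, Hottip, Hoxa11os and Hotair were named by position, and Pbx3 for its interval, after their values were seen. Called members of the cell marker lists were Snap25 and Scn9a (neurons, 1 higher and 1 lower in Sst of 9 tested) and S100b and Aldoc (satellite glia). The 2 satellite glia genes were both higher in Sst, of 10 tested with a median log2 fold change of 0.29. Of all genes tested, 3.04% were higher and 3.31% lower. Of the markers of myelinating Schwann cells 6 were tested and 0 called, with a median of −0.56. The values of 1 Hox gene and of 2 genes of other lists are not reported here.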

Additional observations from a re-analysis of the deposited data

Results flagged for a closer look

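In 46 sets of 4 libraries (9 Hox genes, their sum, 4 clusters and paralog groups 1 to 9, in each genotype), 4 had a library far from the other three. Chance flags about 1 in 20 sets of normally distributed values, a rate that may not hold for CPM values. It does not hold for the 3 sets below whose other libraries were all at 0, and the sets share genes. Hoxa9 stood at 1.20 CPM in Sst replicate 2 and at 0 in the other Sst libraries. Paralog group 2 stood at 0.199 CPM in Sst replicate 1, which is 2 reads of Hoxa2, and at 0 in the other Sst libraries. It stood at 1.14 CPM in Trpv1 replicate 3, from 9 reads of Hoxb2, and at 0 in the other Trpv1 libraries. Paralog group 9 stood at 6.73 CPM in Trpv1 replicate 1, against 1.14 to 2.02 CPM in the other Trpv1 libraries.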

How the results depend on the processing

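In none of 19 alternative fits was a Hox gene called (lowest edgeR adjusted p 0.0619, for Hoxa5 without Trpv1 replicate 2). Signs were less stable: of 167 alternative values of the 9 genes, 11 changed sign. With voom and sample weights Hoxa7 moved to 0.96 and Hoxb6 to 0.78. In the 4 libraries with almost no Gh and Prl (3 Sst, 1 Trpv1, the lone one assumed to vary like the rest) Hoxc6 moved to 3.78, Hoxd8 to 1.49 and Kmt2a to 0.047. The lone Trpv1 library, replicate 4, held 1 read of Hoxc6, so 3.78 measures no size of difference. Leaving out 1 library gave −0.71 to 0.17 for Hoxa7, −0.58 to 0.77 for Hoxb6, −1.09 to 0.038 for Hoxc4, −0.19 to 0.46 for Hoxd1, −0.56 to 0.24 for Hoxd8, −1.54 to −0.38 for Hoxb5, −2.06 to −0.55 for Hoxc6, 0.56 to 3.11 for Hoxd3, −7.23 to −2.12 for Hoxa9 and −0.25 to 0.022 for Kmt2a. Genes called higher and lower in the Sst libraries numbered 360 and 391, 122 and 183 in the 6 libraries with Xist, 15 and 37 in the 4 with almost no Gh and Prl (fewer samples in both), 168 higher with a term for Xist, and 247 lower with the older fit, and ran from 222 to 411 and from 222 to 347 when 1 library was left out. Of the cofactor and regulator genes 1 was higher and 0 lower in the Sst libraries, beside 3.04% and 3.31% of all genes tested. DESeq2 called 2 higher, and 0 were higher with a term for Xist, in the libraries with Xist, in those with almost no Gh and Prl and with the older fit. Unfiltered, 1 was lower, and leaving out 1 library gave 0 to 1. The cause was not tested. Leaving out 1 library moved the Hoxb share in Sst between 10.1% (without replicate 3) and 22.8%, and the Hoxa share in Trpv1 between 10.7% (without replicate 4) and 22.2%. Shares were not recomputed in the libraries with almost no Gh and Prl. Same-numbered libraries did not deviate together (correlations −0.0296 to 0.0316), and with the replicate number as a block 282 and 290 genes were called, with 0 Hox genes. At this depth 19 Hox genes with reads did not reach the test.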
